A study of Mus musculus with 42 samples.

Results

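DNA replication licensing and fork genes, a list of 46 genes whose products load, activate and build the replication fork, were followed in RNA sequencing counts from 42 mouse libraries. The genes were taken by name from a table of 49585 genes, and each of the 46 symbols matched 1 gene identifier in the GENCODE M21 annotation of the GRCm38 build. All mice were 4 weeks old, carried germline p53 alterations and had a background that was an equal mix of BALB/c and C57BL/6. Null mice (labelled p53-null) lacked p53, Het mice (p53 +/-) had 1 wild-type allele, and AD mice (p53 AD/-) and RP mice (p53 RP/-) combined the AD or the RP mutant allele with a null one. No group had 2 wild-type alleles. Irradiated thymus, collected 4 h after exposure, came from 4 Null, 4 Het, 4 AD and 4 RP mice. Unirradiated (basal) thymus was sampled in 2 Null, 3 Het and 3 AD animals. For basal intestine, liver and pancreas there were 3 AD and 3 Null animals each. The same AD and Null mice gave the basal tissues, except that Null-1087 has no thymus library here, so the tissues are not independent. Names such as Het-631 join the genotype to the number of the mouse.

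Before S phase the origin recognition complex, Cdc6 and Cdt1 load the ring of Mcm2 to Mcm7 onto DNA, and geminin (Gmnn) blocks a second loading. The kinase Cdc7 with its activator Dbf4, and later Cdc45, the GINS complex and Mcm10, turn the loaded ring into a moving helicase, behind which polymerases, the sliding clamp Pcna with its loader RFC, and the single-strand binding protein RPA copy the strands. Many of these genes are transcribed mostly in cycling cells through E2F sites. Many are also known to be lowered by p53 through its target Cdkn1a and the repressor complex DREAM. In the thymus, immature thymocytes divide fast and are sensitive to irradiation.

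Thymus libraries held 26398761 to 33331829 counts, intestine 24340398 to 34772519, liver 26000528 to 32487187 and pancreas 19861977 to 24815911. All 46 genes passed the filter on low counts in each fit. Thymocyte markers summed to at least 9378 CPM (a scale of read counts adjusted by TMM for library size and composition) in each thymus library and to at most 349.5 CPM in the other tissues. Cdkn1a, the p53 target that inhibits cyclin-dependent kinases, stood at 44.6, 42.4, 38.3 and 42.3 CPM in irradiated Het thymus and between 3.28 and 4.88 CPM in the other 12 irradiated thymus libraries. Its log2 fold change in irradiated Het against Null was 3.55 ± 0.12 (SE). RNA came from whole organs, so fewer cycling cells and less RNA of these genes per cell cannot be told apart in any comparison. The libraries of one group stand for separate animals by their numbers. A p-value here sets a difference against the spread among few mice per group, estimated over all groups of the fit together.

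Het was compared with Null in irradiated thymus to ask which of these genes differed where a wild-type p53 allele was present. Of the 46 genes 28 were lower in Het and 0 were higher, at an adjusted p under 0.05 in edgeR's quasi-likelihood test with Benjamini-Hochberg adjustment over all genes, while 9.38% of the 22206 genes tested were lower and 9.79% higher. The median log2 fold change of the 46 was -0.33, against -0.01 over all genes tested, and 45 of the 46 had a value below 0. The largest fall was that of Mcm6, to 0.565 times the Null level. All libraries of Het lay below all libraries of Null for 22 of the 46, against 9.14% of all genes, and for 0 of the 46 did all of Het lie above, against 9.63%.

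All 6 MCM genes fell in Het, with a median log2 fold change of -0.49 and a range of -0.82 to -0.32. Mcm6 (chr1:128331590-128359664, minus strand) stood at 270, 358, 240 and 234 CPM in the Null libraries and at 161, 131, 153 and 177 CPM in the Het libraries. Every Het library lay below every Null library, and the log2 fold change was -0.82 ± 0.12 (SE; edgeR adjusted p = 0.00011). Mcm2 stood at 153, 196, 163 and 161 CPM in Null and at 123, 112, 117 and 122 CPM in Het. These groups did not overlap either, and the log2 fold change was -0.50 ± 0.08.

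Of the 6 origin recognition genes Orc2, Orc3 and Orc6 fell, with log2 fold changes of -0.32, -0.27 and -0.39. Orc2 shares 29.8% of its exon bases with Nif3l1 on the other strand, and its counts are uncertain because the strand setting of the counting is not given in the sources used here. Orc1, Orc4 and Orc5 had -0.30, -0.09 and -0.02 and were not called. Orc1 shares 10.8% of its exon bases with Gm12743 on the other strand, so its counts are uncertain too. Gmnn, the inhibitor of Cdt1, fell by 0.47 on the log2 scale. Cdc6, the loader ATPase, stood at 83.5, 94.1, 66.8 and 61.0 CPM in Null and at 56.3, 54.1, 51.6 and 94.2 CPM in Het. The libraries overlapped, with Het-631 as high as the highest Null library, and the difference of -0.25 ± 0.18 was not called (edgeR adjusted p = 0.383). Cdt1 stood at 36.2, 54.8, 41.4 and 41.2 CPM in Null and at 38.2, 34.3, 35.8 and 39.3 CPM in Het. It overlapped too, with -0.23 ± 0.11 (edgeR adjusted p = 0.141).

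Among the 8 genes of origin firing 6 fell, which were Cdc7, Dbf4, Mcm10, Cdc45, Gins1 and Gins2, and Gins3 (-0.24) and Gins4 (-0.14) were not called. Dbf4, the activating subunit of the Cdc7 kinase, stood at 93.9, 108, 95.6 and 104 CPM in Null and at 65.9, 70.8, 59.1 and 71.6 CPM in Het. All Het libraries were below all Null libraries, with a log2 fold change of -0.58 ± 0.07. Gins1, a GINS subunit, stood at 24.3, 35, 23.7 and 23 CPM in Null and at 17.7, 14.9, 16.4 and 20.5 CPM in Het. It fell by 0.61 on the log2 scale without overlap. Its partner Gins2 (-0.58) shares 67.3% of its exon bases with the gene Gse1 on the other strand, so its counts are uncertain for the same reason.

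At the fork, 5 of 6 genes of the sliding clamp and its loader fell (Rfc1, -0.20, was not called; Rfc2, -0.28, shares 15.1% of its exon bases with Lat2 on the other strand and is uncertain), as did 2 of 7 polymerase and primase genes. Pcna, the clamp, for which near-identical pseudogene copies could share reads, stood at 411, 569, 397 and 403 CPM in Null and at 291, 253, 281 and 306 CPM in Het. The groups did not overlap, and the log2 fold change was -0.65 ± 0.11. Rfc4 of the clamp loader stood at 30.2, 31.8, 26.3 and 28.0 CPM in Null and at 21.1, 16.2, 19.8 and 21.9 CPM in Het. It fell by 0.56 on the log2 scale, with no overlap. Rfc4 shares 12.7% of its exon bases with Eif4a2 on the other strand. Eif4a2 had 366097 counts over all libraries against 22714 for Rfc4, so the counts of Rfc4 are uncertain. The 2 polymerase genes that fell were Pola1 (-0.49), the catalytic subunit of the priming polymerase, and Pold2 (-0.63), an accessory subunit of polymerase delta. Pold2 stood at 29.6, 45.0, 29.8 and 28.0 CPM in Null and at 20.2, 19.8, 20.8 and 24.8 CPM in Het. Null-604 was far above the other Null libraries, and all Het libraries lay below all of Null. The catalytic subunits Pold1 (-0.15) and Pole (-0.14) and the primase genes Prim1 (-0.32) and Prim2 (-0.15) were not called.

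Of the RPA subunits Rpa1 (-0.34) and Rpa3 (-0.23) fell and Rpa2 (-0.34) was not called. Neither gene of Okazaki fragment processing was called. Lig1, the ligase that seals the fragments, had -0.31, and Fen1, the flap nuclease, had 0.23 and was the only gene of the 46 with a value above 0. Fen1 had 3853 counts over all 42 libraries, and 78.8% of its exon bases lie under the antisense gene Gm10143, so its level and direction are uncertain. Chromatin assembly and remodelling gave 2 falls in 3 genes. Hells, a remodelling helicase, stood at 136, 136, 117 and 125 CPM in Null and at 73.9, 72.3, 76.0 and 86.2 CPM in Het. It fell by 0.73 on the log2 scale with no overlap, Chaf1b by 0.43, and Chaf1a (-0.26), which shares 52.5% of its exon bases with Ubxn6 on the other strand, was not called. Chek1, the kinase that restrains origin firing under replication stress, stood at 38.5, 44.5, 36.6 and 38.6 CPM in Null and at 23.9, 20.8, 20.8 and 29.5 CPM in Het. It fell by 0.73 on the log2 scale (SE 0.10), without overlap, while Dtl (-0.24), which directs Cdt1 to destruction in S phase, was not called.

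**Figure D1:**
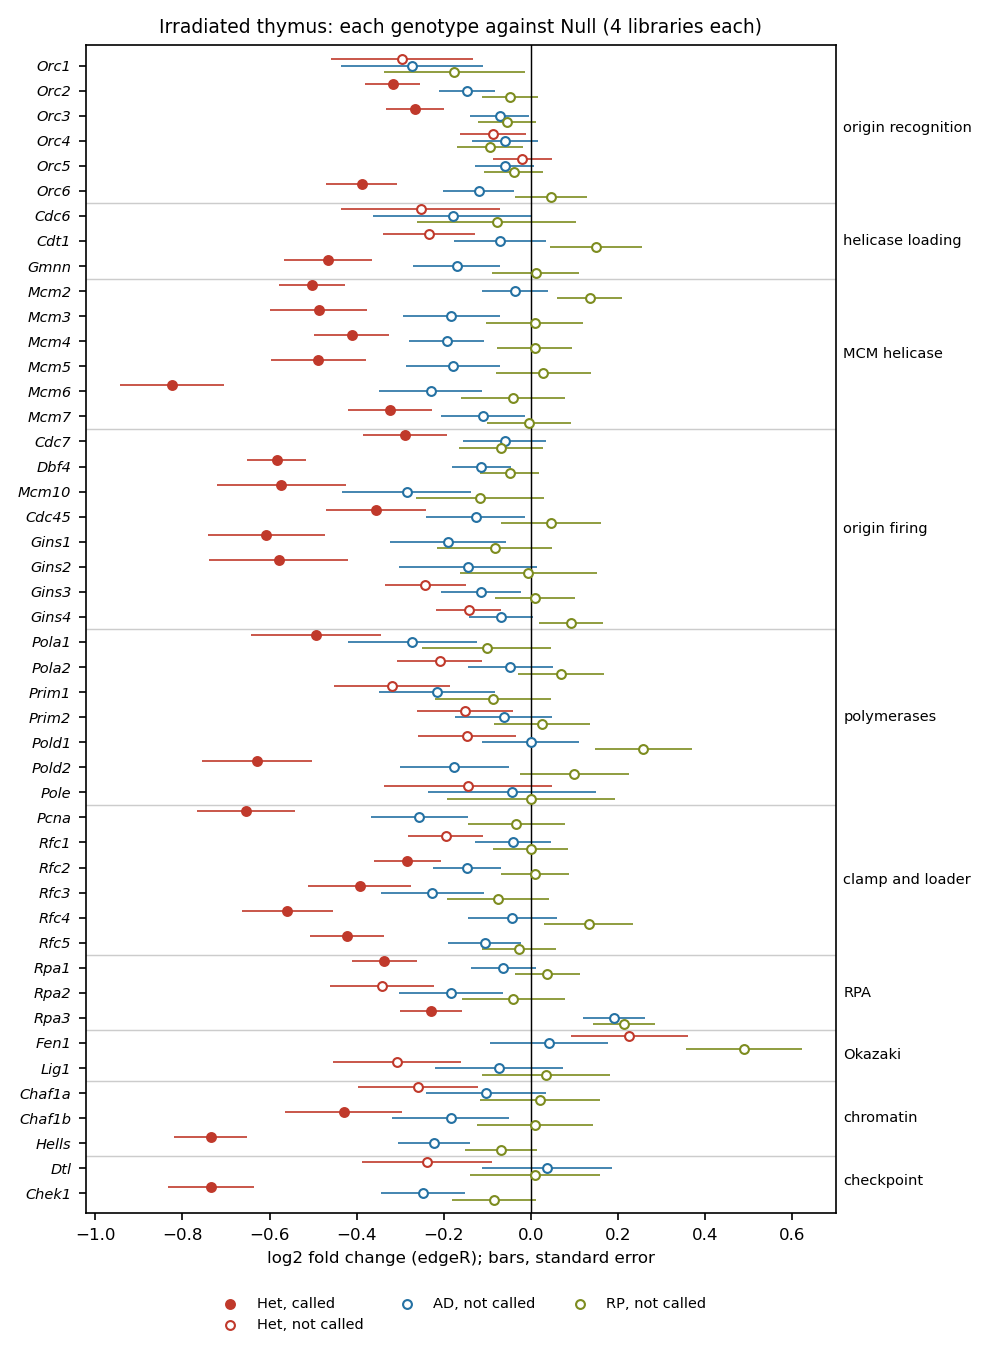
Log2 fold change against Null in irradiated thymus for each of the 46 genes, grouped by role (horizontal axis; bars are standard errors; 4 libraries per group). Filled points passed an edgeR adjusted p of 0.05; Het has 28 filled points, all left of 0, and AD and RP have 0.

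Libraries within these groups were uneven. The median log2 CPM of the 46 genes was 5.87, 5.85 and 5.84 in Het-594, Het-595 and Het-603 and 6.23 in Het-631, and in Null it was 6.50 in Null-604 and 6.10 to 6.26 in the others. Het-631 also had the lowest macrophage marker sum of the irradiated Het libraries (541 CPM against 892 to 1083) and the highest sum of 30 G2 and mitosis genes (8092 against 4955 to 5785). Without Het-631, 41 of the 46 genes were lower, and without Het-595 17 were. Leaving out Het-594 or Het-603 also lost calls, among them Cdc45, Mcm7, Pola1 and Rfc3. Without Null-604 the calls of Cdc45, Cdc7, Chaf1b, Gins2, Mcm7, Pola1 and Rfc3 were lost. Without Null-593 those of Cdc45, Cdc7, Chaf1b and Pola1 were lost. Het-595 held transcripts of both Xist (1139 CPM) and the Y-linked Ddx3y (196 CPM). Het-631 held both too (131 and 150 CPM), as did the basal thymus libraries Het-855 (164 and 193 CPM) and Null-923 (82.5 and 256 CPM). In the liver of the same mouse Null-923, Xist was at 0.265 CPM. In 6 other thymus libraries Xist was at 26.5 to 49.8 CPM beside Ddx3y at 169 to 229 CPM. A fit of only the irradiated Het and Null libraries gave 17 lower genes. The call held under all 14 alternatives for 17 genes. They were Mcm2 to Mcm6, Dbf4, Gins1, Gmnn, Orc2, Orc6, Pcna, Rfc4, Rfc5, Rpa1, Pold2, Hells and Chek1. Of these Orc2, Rfc4, Rfc5 and Orc6 share 29.8%, 12.7%, 10.7% and 6.93% of their exon bases with genes on the other strand. The counts of these 4 genes are uncertain for that reason. Thymic epithelium markers, from the stromal cells around thymocytes, summed to 3534 to 4354 CPM in irradiated Het and 2579 to 2811 CPM in Null, with all 14 markers above 1 CPM in both, and 7 of the 14 were higher in Het and 0 lower. That list also summed to 3372 to 4965 CPM in basal intestine, with 7 to 8 of the 14 above 1 CPM. Its sum is therefore not particular to thymic stroma. Macrophage markers summed to 892 to 1083 CPM in Het-594, Het-595 and Het-603, to 541 CPM in Het-631 and to 597 to 741 CPM in Null, and 4 of the 12 were higher and 0 lower, with a median log2 fold change of 0.40. Thymocyte markers summed to 10590 to 13610 CPM in Het and 9378 to 11710 CPM in Null. Their part in the falls was not tested.

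Lists of other replication and cell cycle genes were counted beside these. Of 50 other replication genes, from polymerase subunits to fork protection and checkpoint clamps, 22 fell and 0 rose. At the front were the cohesion factor Dscc1 (-0.73), the polymerase epsilon subunit Pole2 (-0.67), the fork protection factor Tipin (-0.59) and the helicase Mcm8 (-0.57). Of 30 G2 and mitosis genes 7 fell and 0 rose, with a median of -0.28.

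The mutant alleles were then compared with Null and with Het in irradiated thymus, which asks whether either allele gave the Het pattern. In AD against Null, edgeR called 0 of the 46 genes (6 at an unadjusted p under 0.05, and 0 by DESeq2), with a background of 0.0045% lower and 0.0225% higher. The median log2 fold change was -0.12, with 43 of 46 below 0. All AD libraries lay below all Null libraries for Orc2 and Chek1 (2.46% of all genes did so) and above for Rpa3 (2.87%). Without Null-604 the median was -0.04, with 31 below 0. In RP against Null edgeR called 0 of the 46 (3 at an unadjusted p under 0.05, and 0 by DESeq2; background 0.00901% lower, 0.0225% higher), and the median was 0.00. Both comparisons share the Null libraries with the Het comparison above.

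Against Het, both mutants were higher. In RP 28 of the 46 genes were higher than in Het and 0 lower (background 8.53% higher, 10.2% lower), with a median log2 fold change of 0.38. In AD 13 were higher and 0 lower (background 5.69% and 8.27%), with a median of 0.22. These comparisons share the Het libraries. Of the 14 thymic epithelium markers 8 were lower in RP and 9 in AD (medians -0.39 and -0.44), and of the 12 macrophage markers 5 and 6 (-0.48 and -0.54), with 0 higher. Their part in the differences was not tested. Mcm6 stood at 278, 266, 266 and 264 CPM in RP and at 260, 195, 240 and 243 CPM in AD. Both groups lay above all 4 Het libraries, and the log2 difference from Het was 0.78 ± 0.12 in RP and 0.59 ± 0.12 in AD. Chek1 stood at 40.8, 35.5, 38.6 and 34.6 CPM in RP and at 35.4, 32.4, 32.3 and 33.0 CPM in AD. Both lay above Het, by 0.65 ± 0.10 and 0.49 ± 0.10. Hells stood at 128, 110, 124 and 129 CPM in RP and at 126, 94.2, 113 and 106 CPM in AD, again above every Het library.

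Of the fork genes, Rfc4 was at 32.7, 27.7, 32.8 and 34.7 CPM in RP and at 32.2, 24.6, 26.7 and 29.4 CPM in AD, both above Het (0.69 and 0.52 on the log2 scale). Mcm2 was at 189, 185, 184 and 182 CPM in RP and at 167, 142, 171 and 176 CPM in AD. Both were above every Het library, by 0.64 and 0.47. Pcna was at 470, 371, 450 and 454 CPM in RP and at 421, 319, 368 and 382 CPM in AD, above Het by 0.62 and 0.40. Pold2 was at 35.9, 35.5, 34.4 and 36.3 CPM in RP, above all of Het, and at 30.9, 24.3, 30.6 and 31.2 CPM in AD, where AD-633 lay below Het-631. Cdc6, at 69.5, 71.9, 77.7 and 70.8 CPM in RP and 82.2, 53.5, 67.3 and 66.3 CPM in AD, was called in neither. Cdt1, at 49.8, 49.5, 46.7 and 47.0 CPM in RP, was higher than in Het by 0.38, and at 42.0, 33.9, 45.1 and 44.1 CPM in AD it was not called.

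Rpa3, the smallest RPA subunit, was higher than in Het in both mutants (0.42 in AD and 0.44 in RP). Without Het-631 the AD count rose to 32 and the RP count to 41. The AD count was 8 without Het-594 and 7 without Het-595, Het-603 or AD-630, and the RP count was 18 without Het-595 or Het-603 and 17 without RP-649. Under total count scaling, added after the data were seen, 20 genes were higher in AD. Of the 13 AD calls 7 held under all 14 alternatives (Chek1, Dbf4, Hells, Mcm2, Mcm6, Rfc4 and Rpa3), and of the 28 RP calls 17 held. Among the 50 other replication genes 10 were higher than in Het in AD and 21 in RP, with 0 lower in either, led by Pole2 and Tipin in AD (0.48 and 0.45) and by Tipin and Pole2 in RP (0.64 and 0.62).

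Between the mutants, edgeR called 0 of the 46 genes in AD against RP (6 at an unadjusted p under 0.05, and 0 by DESeq2; background 0% in either direction). The median log2 fold change was -0.14, with 43 of 46 below 0. For 9 genes all AD libraries lay below all RP libraries (3.99% of all genes did so), namely Mcm2 to Mcm6, Cdt1, Pold1, Pold2 and Fen1. Fen1 had the largest of these values, -0.45, on few counts. The RP libraries were also the most even in Mcm6, with 264 to 278 CPM.

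**Figure D2:**
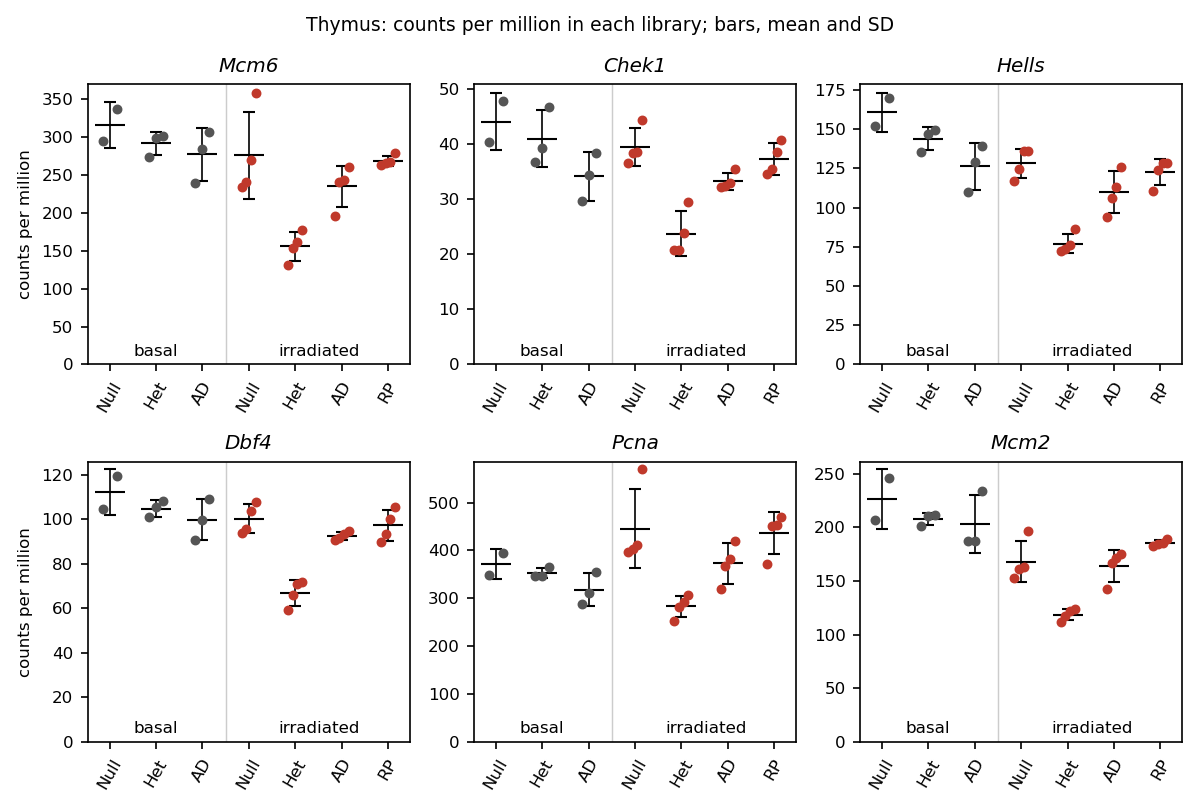
CPM of 6 of the genes in each thymus library (vertical axis, from 0), for the 7 thymus groups; points are libraries and bars the mean and SD. The irradiated Het libraries lie lowest of the irradiated groups in each panel; Mcm6 has 131 to 177 CPM there and 195 to 358 CPM in the other irradiated groups.

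Basal thymus asked whether genotype mattered without irradiation. No gene of the 46 was called by edgeR in Het against Null (3 at an unadjusted p under 0.05), AD against Null (13) or AD against Het (3), nor by DESeq2. The background was 0.0271% lower and 0.0406% higher in the first, 0.0316% and 0.0361% in the second and 0% both ways in the third. The medians were -0.12, -0.15 and -0.05. Only 2 Null libraries enter, and the first 2 comparisons share them. Mcm6 stood at 294 and 337 CPM in basal Null, at 298, 274 and 302 CPM in basal Het and at 307, 285 and 239 CPM in basal AD. The groups overlapped. Hells stood at 152 and 170 CPM in Null, at 147, 136 and 149 CPM in Het and at 139, 129 and 110 CPM in AD, where both Null libraries were the highest. Cdc6 stood at 74.5 and 85.0 CPM in Null, above 67.6, 59.3 and 66.8 CPM in Het and 72.0, 61.6 and 53.2 CPM in AD. With these few libraries all of Het lay below all of Null in 18 of the 46 genes, against 11.9% of all genes, and all of AD in 10, against 10.8%.

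The irradiation response was read as irradiated against basal thymus within a genotype. The 2 sets come from different mice, and the labels do not say whether they were prepared together. In Het 13 of the 46 genes fell and 0 rose, against a background of 8.09% lower and 8.74% higher. In Null edgeR called 0 (7 at an unadjusted p under 0.05; DESeq2 called 1 lower; background 0.119% lower, 0.0127% higher), and in AD it called 0 (11 at an unadjusted p under 0.05; DESeq2 0; background 0.381% lower, 0.165% higher). The median log2 fold changes were -0.18 in Het, 0.05 in Null and 0.05 in AD. RP has no basal thymus here. Thymic epithelium markers summed to 3534 to 4354 CPM in irradiated Het and 2900 to 3038 CPM in basal Het, with 6 of 14 higher and 1 lower. Macrophage markers summed to 892 to 1083 CPM in 3 irradiated Het libraries, 541 CPM in Het-631 and 689 to 771 CPM in basal Het, with 4 of 12 higher and 0 lower. Their part in the response was not tested.

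Of the 6 MCM genes 5 fell in Het (Mcm2 to Mcm6, with Mcm7 at -0.18 not called). Mcm6 went from 298, 274 and 302 CPM in basal Het to 161, 131, 153 and 177 CPM, a log2 fold change of -0.91 ± 0.12 with no overlap. Hells went from 147, 136 and 149 CPM to 73.9, 72.3, 76.0 and 86.2 CPM (-0.90 ± 0.09), and Mcm2 from 212, 211 and 202 CPM to 123, 112, 117 and 122 CPM (-0.81 ± 0.09). Neither overlapped. Chek1 went from 46.8, 36.9 and 39.3 CPM to 23.9, 20.8, 20.8 and 29.5 CPM (-0.79 ± 0.11). Dbf4 went from 105, 108 and 101 CPM to 65.9, 70.8, 59.1 and 71.6 CPM (-0.65 ± 0.08). Both were lower in every irradiated library. Gins2, with uncertain counts, went from 16.4, 15.2 and 16.1 CPM to 10.4, 8.75, 9.93 and 11.8 CPM (-0.64). Orc1 (-0.48), Orc2 (-0.27), Pold2 (-0.41) and Rfc4 (-0.48) were the others, and 11 of the 13 calls held under all 12 alternatives, the exceptions being Orc1 and Pold2. Without Het-631, 20 genes fell.

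Pcna, at 366, 347 and 345 CPM in basal Het, stood at 291, 253, 281 and 306 CPM after irradiation, without overlap, and was not called (-0.32), and in Null it had 349 and 394 CPM before and 411, 569, 397 and 403 CPM after (0.26, not called). Cdc6 (-0.01) and Cdt1 (-0.27) were not called in Het. Of the 50 other replication genes 12 fell and 3 rose in Het, among them Uhrf1 (-0.56), which couples replication to DNA methylation, and the rising Clspn (0.67), the Chek1 adaptor. Of 30 G2 and mitosis genes 12 fell and 0 rose.

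The difference between genotypes in this response was tested directly with an interaction contrast. Het differed from Null in 4 of the 46 genes, all with a more negative response in Het, against 1.07% of all genes lower and 2.37% higher: Mcm6 (-0.71 ± 0.19), Chek1 (-0.63 ± 0.17), Hells (-0.57 ± 0.14) and Dbf4 (-0.49 ± 0.11). Without the basal library Null-859, which leaves 1 basal Null library assumed to vary like the other groups, the count was 0. It was 2 without Null-923, Het-595, Het-603, Het-703 or Het-855 and 9 without Het-631. Het differed from AD in 7 genes, again all more negative in Het (background 1.04% lower, 2.94% higher): Chek1 (-0.75 ± 0.16), Hells (-0.70 ± 0.13), Mcm6 (-0.67 ± 0.18), Dbf4 (-0.54 ± 0.11), Rfc4 (-0.51), Mcm2 (-0.50) and Rpa3 (-0.46). Chek1, Dbf4 and Hells kept this call under all 19 alternatives. Over the libraries left out the count ran from 3, without basal Het-703, AD-700 or AD-701, to 15, without Het-631. It was 4 without Het-595, Het-603, AD-630 or AD-727. AD against Null gave 0 calls in edgeR (0 at an unadjusted p under 0.05, and 0 by DESeq2; background 0% both ways), with a median of 0.02. The 3 contrasts share libraries.

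**Figure D3:**
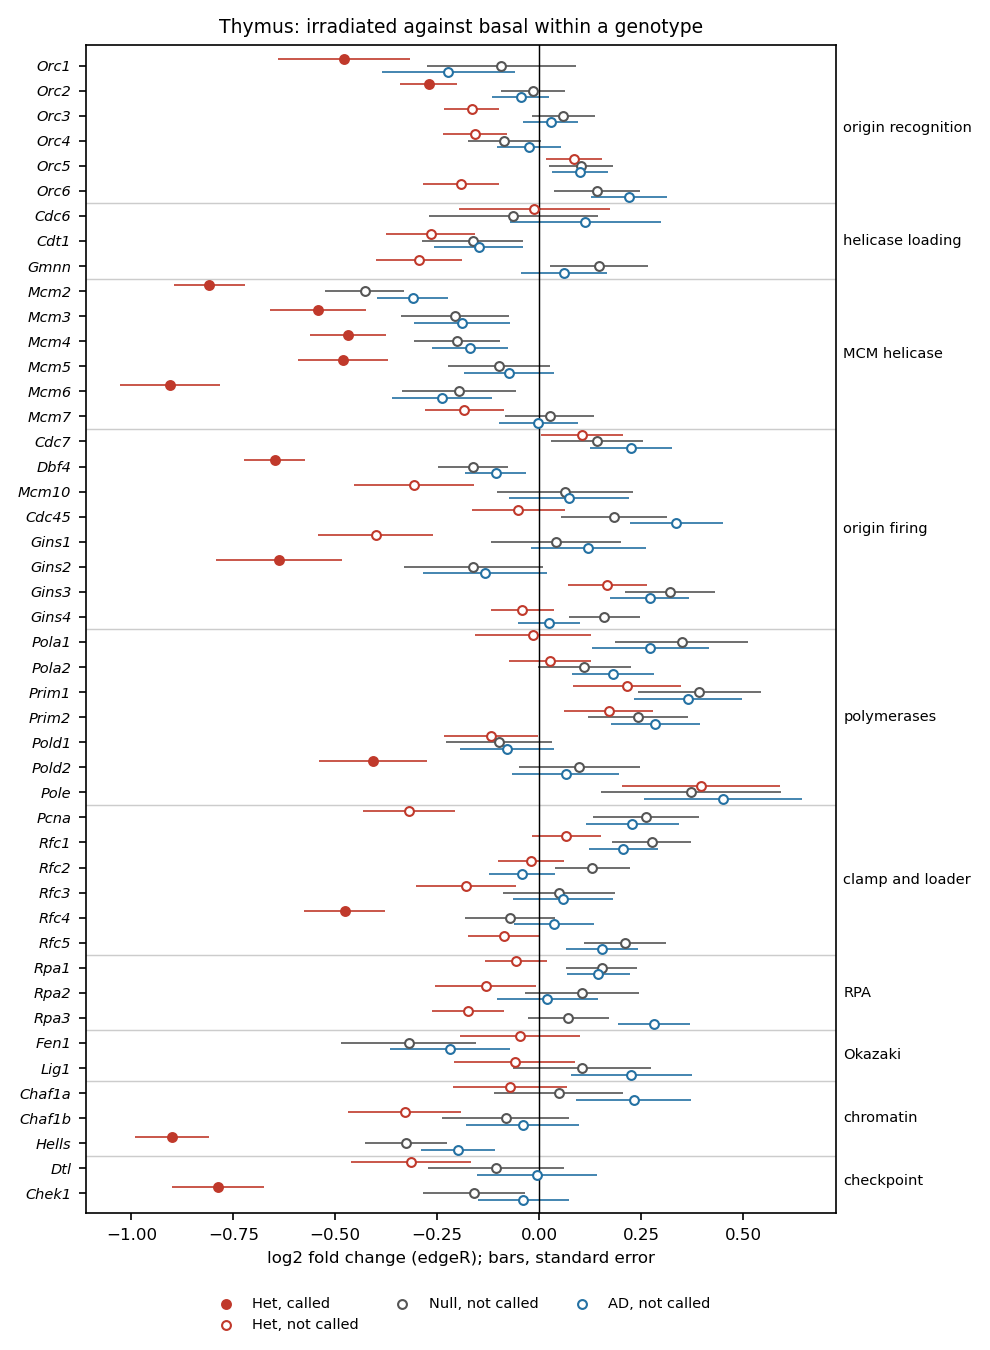
Log2 fold change of irradiated against basal thymus in Het, Null and AD for the 46 genes (horizontal axis; bars are standard errors). Filled points passed an edgeR adjusted p of 0.05 and occur in Het only, 13 of them, all left of 0; Mcm6 and Hells lie farthest left at -0.91 and -0.90.

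Promoters of these genes were read because E2F and related sites are their best known control elements. RefSeq promoters on GRCm38.p6, from 250 bases before to 50 after the start, were given for 38 of the 46 genes, and were searched on both strands. The E2F core letters TTCCCGC or TTGGCGC or TTCGCGC or TTGCCGC occurred in 23 of the 38 (60.5%) and in 9.7% of 27025 promoters. A stricter set with 1 more T (TTTCCCGC or TTTGGCGC or TTTCGCGC or TTTGCCGC), each of which contains a core, occurred in 36.8% and 2.3%. The CCAAT box (CCAAT) occurred in 57.9% and 37.9%, and the CHR element (TTTGAA), bound by the DREAM complex in G2 genes, in 15.8% and 18.1%. Of the genes lower in irradiated Het against Null 13 of 23 held an E2F core (56.5%), and of those not called 10 of 15 (66.7%). These shares are descriptions, and no difference between them was tested. The 4 genes whose irradiation response differed between Het and Null are shown first, from chr1:128359656-128359955 (minus strand) for Mcm6, chr19:38930740-38931039 (plus strand) for Hells, chr9:36726609-36726908 (minus strand) for Chek1 and chr5:8422667-8422966 (minus strand) for Dbf4, and Orc5, picked after its values were seen for its small difference in irradiated thymus (-0.02 in Het against Null), from chr5:22550289-22550588 (minus strand) for comparison. Capitals mark E2F cores, CCAAT boxes and the CHR element on either strand, and each sequence reads 5′ to 3′ in the gene's direction.
Mcm6: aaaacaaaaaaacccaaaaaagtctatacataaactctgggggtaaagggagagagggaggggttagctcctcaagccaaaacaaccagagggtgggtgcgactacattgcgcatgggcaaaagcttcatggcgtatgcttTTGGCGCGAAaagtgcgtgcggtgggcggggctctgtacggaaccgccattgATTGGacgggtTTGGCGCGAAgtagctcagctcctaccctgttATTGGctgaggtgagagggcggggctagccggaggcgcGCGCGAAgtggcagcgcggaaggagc
Hells: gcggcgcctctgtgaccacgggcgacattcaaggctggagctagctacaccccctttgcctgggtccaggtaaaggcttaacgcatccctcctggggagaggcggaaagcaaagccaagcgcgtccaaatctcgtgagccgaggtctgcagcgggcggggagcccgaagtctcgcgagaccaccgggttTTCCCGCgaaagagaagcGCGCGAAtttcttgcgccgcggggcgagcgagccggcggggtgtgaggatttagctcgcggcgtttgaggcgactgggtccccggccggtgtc
Chek1: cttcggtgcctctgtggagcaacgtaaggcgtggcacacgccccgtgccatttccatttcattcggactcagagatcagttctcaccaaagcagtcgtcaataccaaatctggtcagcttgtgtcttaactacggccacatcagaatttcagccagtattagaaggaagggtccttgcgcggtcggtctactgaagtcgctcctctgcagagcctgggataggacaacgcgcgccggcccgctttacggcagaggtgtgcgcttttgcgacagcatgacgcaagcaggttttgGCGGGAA
Dbf4: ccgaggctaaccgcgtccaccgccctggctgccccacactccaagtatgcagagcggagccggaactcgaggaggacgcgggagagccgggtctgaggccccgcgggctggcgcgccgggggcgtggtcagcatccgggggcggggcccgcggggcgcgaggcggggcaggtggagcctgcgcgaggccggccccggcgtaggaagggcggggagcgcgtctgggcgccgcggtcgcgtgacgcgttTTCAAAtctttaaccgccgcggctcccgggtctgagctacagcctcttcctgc
Orc5: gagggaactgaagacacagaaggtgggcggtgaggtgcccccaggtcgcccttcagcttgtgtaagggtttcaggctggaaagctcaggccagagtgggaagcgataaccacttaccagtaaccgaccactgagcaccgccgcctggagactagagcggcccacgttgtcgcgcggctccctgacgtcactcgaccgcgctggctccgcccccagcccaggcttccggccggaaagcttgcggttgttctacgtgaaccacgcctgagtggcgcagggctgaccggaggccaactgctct
Mcm6 held 5 core matches, of which 2 pairs overlap in the run TTGGCGCGAA, because that run reads as a core on each strand. Hells held 2, and Chek1 held 1 at the end of the window. Dbf4 held 0 cores and 1 CHR match at the start site, and Orc5 held none of the letters searched. A missing match says only that these letters are not in these 300 bases.

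AD was compared with Null in the 3 other basal tissues too. In intestine edgeR called 0 of the 46 genes (6 at an unadjusted p under 0.05, and 0 by DESeq2; background 0% lower, 0.015% higher), with a median log2 fold change of -0.16 and 43 of 46 below 0. In liver it called 0 (16 at an unadjusted p under 0.05; background 0.114% lower, 0.152% higher), with a median of -0.47 and 40 below 0, while DESeq2 called 5 lower and edgeR without the filter on low counts called 10 lower. In pancreas 1 gene, Hells, was lower (17 genes at an unadjusted p under 0.05; background 0.00685% lower, 0.0479% higher), with a median of -0.48 and 39 below 0. DESeq2 called 3 lower there, and 5 were called without the filter. The mice were the same in each tissue, so the tissues do not repeat each other.

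In pancreas Hells stood at 1.41, 1.47 and 1.67 CPM in AD and at 4.31, 5.05 and 4.01 CPM in Null. All AD libraries lay below all Null libraries, with a log2 fold change of -1.55 ± 0.23 (edgeR adjusted p = 0.02), and the call was lost without AD-700, AD-701 or Null-923. Mcm5 stood at 3.42, 3.78 and 3.47 CPM in AD and at 6.23, 7.33 and 6.42 CPM in Null, and Cdc6 at 1.07, 1.18 and 1.05 CPM and at 2.35, 3.28 and 2.69 CPM. Neither overlapped, and their log2 fold changes of -0.90 and -1.33 were not called. All AD libraries lay below all Null libraries for 21 of the 46 genes in pancreas, against 6.66% of all genes. Counts were small, with 17 of the 46 genes averaging under 50 counts in pancreas. Fibroblast markers summed to 482 to 702.3 CPM in AD and 661 to 822 CPM in Null, and thymocyte markers, near 0 in pancreas, to 5.01 to 5.89 and 7.29 to 21.4 CPM. Their part in the difference was not tested.

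In liver Cdc6 stood at 0.860, 0.977 and 0.958 CPM in AD and at 2.59, 1.97 and 2.53 CPM in Null (-1.34), and Dtl at 2.24, 1.73 and 1.22 CPM and at 4.71, 3.82 and 3.20 CPM (-1.17). Neither overlapped and neither was called. Mcm5 stood at 11.1, 12.2 and 9.55 CPM in AD and at 29.1, 14.9 and 14.7 CPM in Null, where Null-859 was the highest in Mcm6 as well (39.6 CPM against 25.5 and 24.5). All AD libraries lay below all Null libraries for 20 of the 46 genes, against 7.38% of all genes, and above for 1, Gins4. Of the 30 G2 and mitosis genes edgeR called 0 in liver (1 at an unadjusted p under 0.05), with a median log2 fold change of 0.12. Adipocyte markers summed to 3694 to 4790 CPM in AD and 1190 to 2947 CPM in Null liver, with 4 to 5 of 10 above 1 CPM, and their part was not tested. In intestine 14 of the 46 genes did not overlap, all lower in AD, against 6.43% of all genes, and acinar enzyme markers of the pancreas summed to 716, 9067 and 90420 CPM in AD and to 613, 10360 and 49140 CPM in Null libraries.

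**Figure D4:**
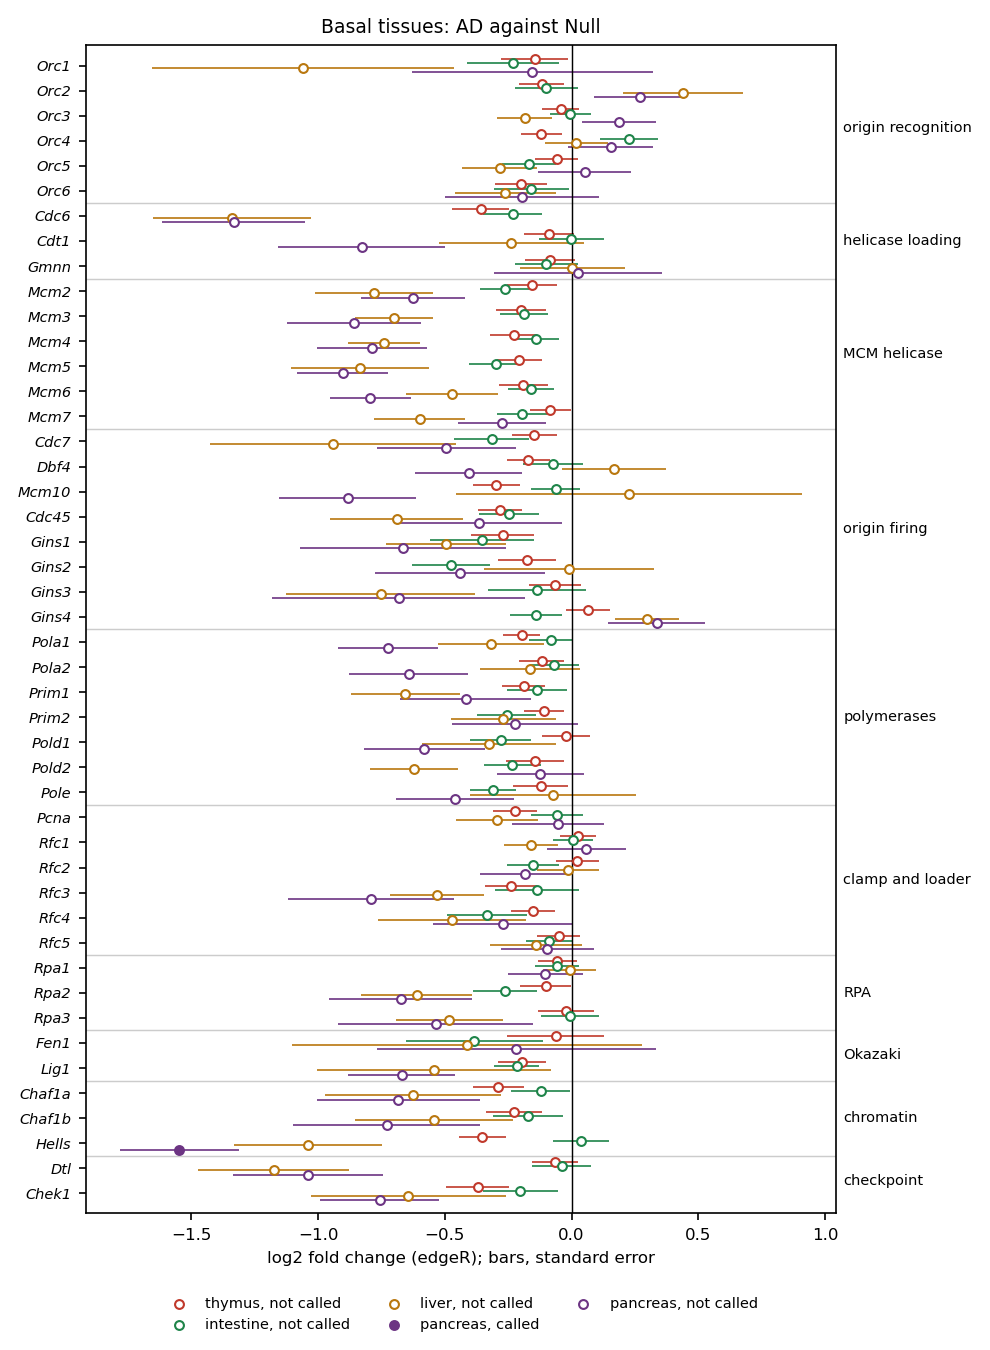
Log2 fold change of AD against Null in basal thymus, intestine, liver and pancreas for the 46 genes (horizontal axis; bars are standard errors). The single filled point is Hells in pancreas at -1.55; the medians are -0.15, -0.16, -0.47 and -0.48.

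Across basal tissues of AD and Null mice the thymus had the highest mean level, per length of exon, in 43 of the 46 genes, liver in 2 (Mcm10 and Gins4) and pancreas in 1 (Pold2). Thymus was higher than intestine in 45 genes and lower in 1, higher than liver in 42 and lower in 1, and higher than pancreas in 45 and lower in 1. Between the other tissues, intestine was higher than liver in 31 and lower in 8, intestine higher than pancreas in 36 and lower in 2, and liver higher than pancreas in 27 and lower in 10. Backgrounds were wide: 39.7% higher and 35.3% lower for thymus against intestine, 47.7% and 31.6% against liver, 38.9% and 31.5% against pancreas, then 42% and 28.5%, 34.9% and 29.4%, and 30% and 35.3%. The medians of the 46 were 1.54, 2.02, 2.75, 0.59, 1.06 and 0.53 in that order, against 0.14, 0.53, 0.22, 0.33, 0.10 and -0.13 over all genes, from which tissue differences are to be read. Scaling decided the lower calls: with total counts 0 genes were lower in thymus against each tissue and in intestine against pancreas, and 2 in intestine against liver and in liver against pancreas. That scaling moved the medians of all genes to 0.63, 1.75, 2.22, 1.07, 1.60 and 0.52.

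Levels per kilobase of exon let genes be compared within a tissue. In thymus Pcna led with 70.4 ± 8.83 CPM per kb (SD, n = 5), followed by Mcm6 (31.2 ± 3.93), Mcm5 (29.2 ± 3.58), Mcm7 (27.7 ± 2.28), Mcm4 (25.8 ± 3.47) and Mcm3 (23.3 ± 3.18). Neighbours among these MCM genes differed by less than their SD, and Mcm2 was lower at 15.2 ± 1.96. In intestine Pcna (24.5 ± 2.23, n = 6) again led and Mcm6 followed at 11.2 ± 0.945. The lowest in thymus were Orc1 (2.07 ± 0.203), Gins2 and Fen1, all with uncertain counts. Orc1, whose protein is made at the G1 to S transition, spanned a wide range, with 0.690 ± 0.076 in intestine, 0.327 ± 0.0933 in pancreas and 0.140 ± 0.0655 CPM per kb in liver. Its partners Orc4 and Orc5 varied less. Orc5 had 2.65, 1.59, 2.42 and 1.65 CPM per kb in thymus, intestine, liver and pancreas, and its thymus to liver difference (0.14 on the log2 scale) was not called.

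The genes that departed from the thymus order were few. Mcm10, which binds the activated helicase, had a log2 fold change of -1.42 in thymus against liver, a call lost under total count scaling, and of 4.46 in liver against pancreas. Within liver it stood at 50.7, 103 and 89.5 CPM in AD and at 25.3, 60.2 and 122 CPM in Null. The lowest and the highest liver library were both Null, so the groups overlapped. The firing factor Cdc45 had 2.98 in thymus against liver. Gins4, a GINS subunit, and Pcna had the highest levels per kb of the 46 in liver (14.5 ± 1.70 and 14.5 ± 2.93), closer than their SDs. Gins4 had 14.4 ± 0.813 in thymus, with a log2 difference of -0.02 ± 0.09 that was not called. Pold2 led in pancreas (11.2 ± 1.74 CPM per kb), and its log2 fold changes were -0.43 in thymus against intestine and -0.53 in thymus against pancreas. That direction depended on scaling: with total counts in place of composition scaling the values were 0.07 and 1.52, higher in thymus. In the basal AD and Null libraries the 46 genes took 0.374 to 0.476% of all counts in thymus and 0.0182 to 0.0256% in pancreas. With irradiated and Het libraries included, the thymus range was 0.322 to 0.556%. In pancreas 9 acinar enzyme markers summed to 306400 to 438700 CPM.

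**Figure D5:**
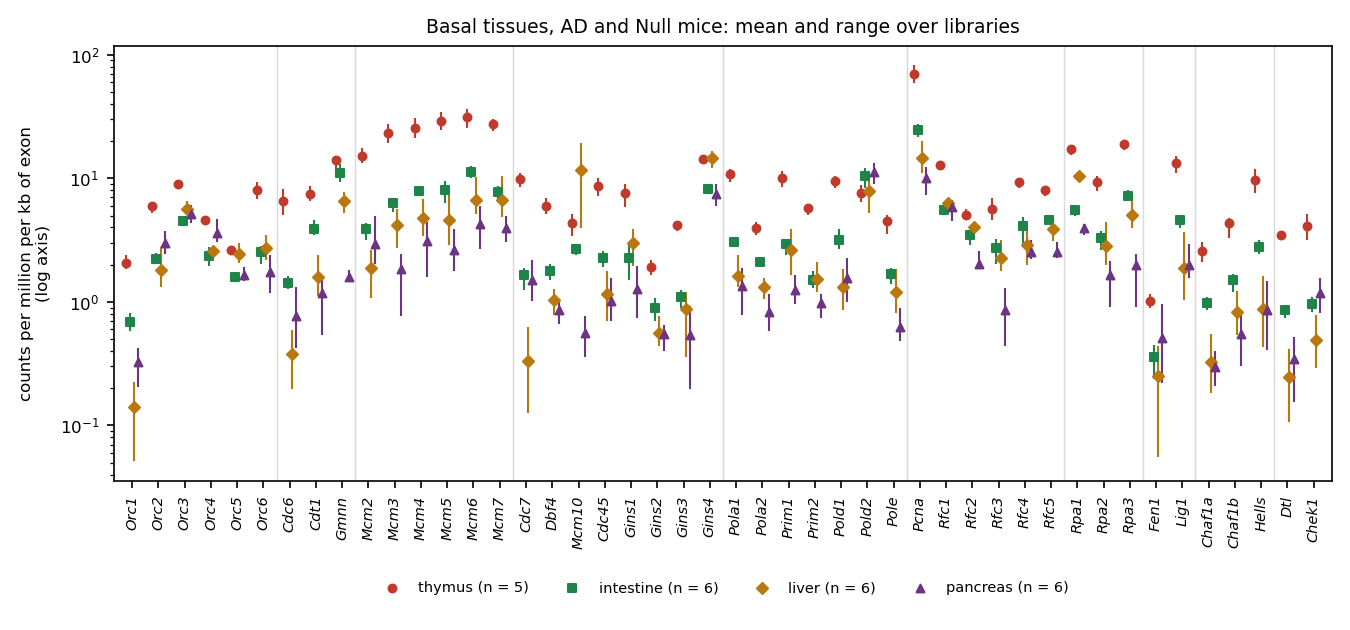
Mean CPM per kb of exon (vertical log axis) of the 46 genes in basal thymus (n = 5), intestine, liver and pancreas (n = 6 each); lines span the lowest to the highest library. Thymus lies highest for 43 genes, and Mcm10 in liver spans 3.95 to 19.4 CPM per kb.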

How the data were processed

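The deposited table holds raw counts per gene, which the authors made from total RNA libraries. STAR 2.6.0b, GRCm38 and DESeq2 are named in the submitters' processing notes. The counting tool, annotation release and strand setting are not given in the sources used here. Symbols came from GENCODE M21 (43749 identifiers matched with version, 5577 without, 259 unmatched). Columns were matched to mice by animal number. The basal thymus columns name no tissue. In AD and Null each was taken as the column of that animal left over after the named tissues. Each basal Het column was the only one of its animal. Thymocyte marker levels of all these columns were checked.

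Counts were fitted with edgeR 4.0.16 (quasi-likelihood F test, TMM scaling, filterByExpr, robust) in R 4.3.3, with limma 3.58.1. Separate fits covered irradiated thymus (16 libraries), basal thymus (8), all thymus (24), each other tissue (6) and the basal AD and Null tissues together (23). P-values were adjusted by Benjamini-Hochberg over all genes of a fit, with a threshold of 0.05, and the prior count was 2. CPM use TMM scaling within a tissue, and levels per kb use scaling over the basal tissues, where TMM factors ran from 0.45 in pancreas to 2.03 in thymus. All 46 members are accounted for. Values per library were given for the members with the largest called changes and for Mcm6, Chek1, Pcna, Cdc6 and Cdt1. Those of Dbf4, Mcm2, Rfc4, Gins2 and the uncalled liver and pancreas genes were chosen after the values were seen. The test was checked on simulated counts.

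In tissue comparisons the same number is the same mouse. Over 33 pairs of libraries from one mouse the deviations from the group means had a median correlation of 0.04 (-0.01 to 0.16), and 2 pairs were above 0.1. The 49 pairs of libraries within groups differed by more than sampling noise (chi-square per degree of freedom 4.04 to 244). Alternatives were DESeq2 1.42.0, no filter on low counts, fewer groups in the fit, total count scaling, an Xist covariate, the mouse as replicate block and leaving out each library. The members and lists were chosen with earlier results of these data known.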

Additional observations from a re-analysis of the deposited data

Results flagged for a closer look

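Of 184 groups of 4 libraries tested, 26 held a library whose gap to its nearest neighbour took more of the range of the group than Dixon's limit allows, which chance passes in about 1 group in 20. Null-604 stood above the other 3 for Mcm4 (0.978), Mcm5 (0.912), Gins1 (0.866), Pold2 (0.868), Pcna (0.901), Rfc2 (0.883) and Rpa2 (0.849). Het-631 stood above the other 3 for Orc6 (0.859), Cdc6 (0.855), Mcm10 (0.879), Cdc45 (0.908), Pola1 (0.965), Pola2 (0.835), Prim2 (0.974), Pole (0.981), Rfc1 (0.864) and Dtl (0.8295). AD-630 stood above the other 3 for Orc6 (0.886). AD-633 stood below the other 3 for Mcm3 (0.837), Mcm5 (0.885), Pola2 (0.903) and Pold2 (0.923). RP-654 stood above the other 3 for Orc5 (0.835). RP-649 stood above the other 3 for Rfc5 (0.833). RP-653 stood below the other 3 for Rpa3 (0.97). RP-656 stood below the other 3 for Chaf1a (0.873). The value in parentheses is the gap as a share of the range. The genes share each library, so their flags are not independent.

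The irradiation response differed between genotypes in an interaction test. In Het minus Null the log2 difference was -0.71 for Mcm6, -0.49 for Dbf4, -0.57 for Hells and -0.63 for Chek1. In Het minus AD the log2 difference was -0.50 for Mcm2, -0.67 for Mcm6, -0.54 for Dbf4, -0.51 for Rfc4, -0.46 for Rpa3, -0.70 for Hells and -0.75 for Chek1. Both contrasts use the Het libraries, and the counts without each library stand beside them in the results.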

How the results depend on the processing

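Calls of the 46 genes were repeated under each alternative. With only the compared groups in the fit, 17 were lower in irradiated Het against Null. Under total count scaling 20 were higher in AD against Het, and across tissues 0 were lower in thymus against intestine, liver or pancreas and in intestine against pancreas, with 2 lower in intestine against liver and 2 in liver against pancreas. Pold2 turned to 0.068 in thymus against intestine, 1.52 in thymus against pancreas and 0.26 in liver against pancreas (cause not tested). Without the filter 1 gene was lower in basal thymus Het against Null, 3 in AD against Null, 10 in liver, 5 in pancreas, 1 in the Null response and 5 in intestine against liver. DESeq2 called 5 lower in liver, 3 in pancreas and 1 in the Null response. With Xist as a covariate 27 were lower in Het against Null, 26 of them among the 28 (Cdc7 and Rpa3 were not called).

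With the mouse as a replicate block the counts for intestine against liver were 30 and 8 and for liver against pancreas 27 and 9, and the other 4 tissue comparisons gave the counts of the fit without it. In thymus and within each other tissue no replicate number is shared between groups.

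Leaving out each library gave 17 to 41 lower genes in Het against Null, 7 to 32 higher in AD against Het, 17 to 41 higher in RP against Het, 11 to 20 lower in the Het response, 0 to 1 in the Null response and 0 to 1 in pancreas. The differences in response gave 0 to 9 for Het minus Null and 3 to 15 for Het minus AD. Intestine was higher than liver in 27 to 32 genes and lower in 5 to 8, higher than pancreas in 36 and lower in 2 to 3, and liver against pancreas gave 24 to 28 and 9 to 10. Counts limit pancreas and liver, where 17 and 4 genes averaged under 50 counts, and Fen1 fell to 3 counts in 1 liver library.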
